A study of Mus musculus with 24 samples.

Results

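The genes described here encode the machinery that brings new proteins into the endoplasmic reticulum (ER) and moves them between the ER and the Golgi. They were chosen by name, as every gene with a probe set annotated to it alone whose symbol belongs to the Sec, Ssr, Spcs, Srp, Cop, Kdelr, Tmed or Sar1 series of translocation, signal cleavage and vesicle coat genes. The rule found 54 of the 12393 genes measured, with 94 probe sets between them. For the 24 genes with several probe sets the brightest on average over all arrays was used, and the other 30 genes had 1. By role, 5 genes make the translocon channel and its partners, 4 the TRAP complex, 5 the signal peptidase, and 6 the signal recognition particle (SRP) and its receptor. A further 12 belong to the COPII coat, 2 are Sec22 genes and 8 belong to the COPI coat. The others are 3 KDEL receptors and 9 p24 proteins, the Tmed genes. Gene expression was measured on 24 Affymetrix arrays of mouse sciatic nerve, with 2 biological replicates, by their labels, for each of 4 genotypes at 3 ages. S63del mice express, from a transgene, a mutant myelin protein that lacks 1 serine, and model Charcot-Marie-Tooth 1B neuropathy. They were set against wild type (WT) mice. S63del/Chop null mice carry the same mutant and lack Chop (Ddit3), a transcription factor of the ER stress response, and were set against Chop null mice, which lack Chop and make no mutant. The nerves were taken at postnatal day 5 (P5), early in myelination, at P28, about its peak, and at 4 months. Nerves were stripped of the perineurial sheath, frozen and ground before RNA was extracted. The sources used here state neither strain, sex nor the number of mice behind an array. Values are log2 expression, so a difference of 1 is a doubling.

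Ribosomes making a secreted or membrane protein are brought to the ER by the SRP and its receptor, and the growing chain enters through the Sec61 channel. The TRAP complex assists some chains, the Sec62 and Sec63 proteins assist others, and the signal peptidase cuts off the signal sequence. Folded cargo leaves in COPII vesicles, which form when Sar1 recruits the Sec23-Sec24 and Sec13-Sec31 layers at sites marked by Sec16. COPI vesicles carry material back from the Golgi, among it escaped ER proteins held by the KDEL receptors, and p24 proteins travel in both kinds of vesicle as cargo receptors. Myelinating Schwann cells make myelin membrane proteins in bulk through this route, and the S63del mutant protein is known to be retained in the ER. Many genes of the route are targets of XBP1 and ATF6, transcription factors of the ER stress response, in other mammalian cells.

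The labels and the tissue were checked before any comparison. Ddit3 ranged between 6.60 and 7.37 on the arrays of Chop null genotypes, against 7.61 to 9.59 on the others, so that all 12 arrays of those genotypes lay below the rest. The 6 measured markers of myelinating Schwann cells, the main glia of the nerve, averaged between 11.77 and 12.48 on every array. Of the 54 genes, 50 had a mean above the median of all genes (7.36), and Sec16b, Tmed6, Tmed8 and Tmed11 lay below it. Replicates differed with an SD of 0.416 between the P28 Chop null arrays and 0.262 between the 4-month WT arrays, against 0.122 to 0.214 in the other groups. Chop null replicate 2 at P28 and WT replicate 1 at 4 months were taken as the arrays that stood apart. The SD between 2 replicates cannot show which of them differs. WT replicate 1 at 4 months also had a 3′ minus 5′ Gapdh control difference of 2.12, a sign of RNA quality. In nerve tissue, fewer cells of a type and less RNA per cell cannot be told apart. Tests are limma contrasts of group means over all 24 arrays, adjusted over all 12393 genes, and a gene passed at an adjusted p under 0.05.

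Promoter sequence was matched for 45 of the 54 genes, from RefSeq on assembly GRCm38.p6, as 250 bases before to 50 after the annotated start. Sec61a1, Ssr2, Sec11c, Spcs3, Srp19, Srp68, Kdelr2, Tmed7 and Tmed11 were not matched. The motifs were searched on both strands. Shares are of genes, and a gene counted as a holder when any of its listed promoters matched. The ER stress element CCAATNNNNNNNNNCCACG was in 0 of the 45 genes, against 0.137% of all 27025 genes with a promoter. It was in 6 of 16 known ER stress genes (37.5%) such as Hspa5. Its shorter form, ATTGG then any base then CCACG, was also in 0 of 45, against 0.0444% of all and 12.5% of the ER stress genes. The core TGACGTG, which XBP1 is known to bind, was in 7 of 45 (15.6%), against 2.22% of all genes with a promoter. It was in 3.01% of such genes on the array and 6.25% of the ER stress genes. Its holders sit in 4 roles, and their windows are shown with the core, or its reverse complement CACGTCA, in capitals and 20 bases on each side, written 5′ to 3′ on the strand of the gene:
Srpr, chr9:35211170-35211216, plus strand: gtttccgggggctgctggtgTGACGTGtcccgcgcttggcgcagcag
Sec16b, chr1:157506732-157506778, plus strand: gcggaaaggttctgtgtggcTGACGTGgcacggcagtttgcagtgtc
Sec23a, chr12:59011985-59012031, minus strand: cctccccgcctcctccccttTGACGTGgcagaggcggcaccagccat
Sec24d, chr3:123267450-123267496, plus strand: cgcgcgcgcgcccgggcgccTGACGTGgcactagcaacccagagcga
Copb1, chr7:114254681-114254727, minus strand: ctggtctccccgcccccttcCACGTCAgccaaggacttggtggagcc
Copb2, chr9:98563705-98563751, plus strand: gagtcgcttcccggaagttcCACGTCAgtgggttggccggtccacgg
Kdelr3, chr15:79516359-79516405, plus strand: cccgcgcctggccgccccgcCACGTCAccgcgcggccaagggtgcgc
In 6 of these 7 promoters the core overlapped a CCACG box, the end of the ER stress element. The box itself was in 33 of 45 genes (73.3%), against 35.5% of all, 47.6% of those on the array and 87.5% of the ER stress genes. None of the 7 holders of the core passed at P28 in S63del against WT or in S63del/Chop null against Chop null, as described below. A match describes the letters in the window and no binding was measured.

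Full promoters are shown for the 4 genes that rose in S63del nerve at P28 and had sequence in the table, with CCACG or its reverse complement CGTGG in capitals. Spcs2 encodes a signal peptidase subunit, Sec23b a protein of the inner COPII layer, and Tmed3 and Tmed9 are p24 proteins:
Spcs2, chr7:99858834-99859133, minus strand: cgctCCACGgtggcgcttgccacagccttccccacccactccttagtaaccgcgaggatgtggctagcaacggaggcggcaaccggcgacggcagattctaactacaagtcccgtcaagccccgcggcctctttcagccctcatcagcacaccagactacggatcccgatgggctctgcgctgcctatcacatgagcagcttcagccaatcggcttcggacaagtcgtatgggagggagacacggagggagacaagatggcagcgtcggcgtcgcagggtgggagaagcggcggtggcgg
Sec23b, chr2:144555979-144556278, plus strand: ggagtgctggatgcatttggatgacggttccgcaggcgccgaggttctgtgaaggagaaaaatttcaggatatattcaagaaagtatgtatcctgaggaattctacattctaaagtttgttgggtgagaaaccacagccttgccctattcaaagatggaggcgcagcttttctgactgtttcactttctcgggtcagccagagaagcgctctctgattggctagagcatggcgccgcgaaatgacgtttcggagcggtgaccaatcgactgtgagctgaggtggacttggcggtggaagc
Tmed3, chr9:89704994-89705293, minus strand: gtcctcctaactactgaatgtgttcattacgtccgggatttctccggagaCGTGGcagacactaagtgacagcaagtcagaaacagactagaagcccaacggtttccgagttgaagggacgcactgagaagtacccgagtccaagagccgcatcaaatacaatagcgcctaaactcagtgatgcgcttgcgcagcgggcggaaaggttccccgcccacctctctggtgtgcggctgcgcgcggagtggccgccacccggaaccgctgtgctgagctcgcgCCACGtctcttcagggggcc
Tmed9, chr13:55592885-55593184, plus strand: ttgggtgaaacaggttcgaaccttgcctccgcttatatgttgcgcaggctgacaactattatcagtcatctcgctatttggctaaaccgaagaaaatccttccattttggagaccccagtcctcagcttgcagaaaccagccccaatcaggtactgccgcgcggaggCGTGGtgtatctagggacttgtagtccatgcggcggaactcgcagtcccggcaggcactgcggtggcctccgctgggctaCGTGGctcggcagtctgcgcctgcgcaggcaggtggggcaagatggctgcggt
Spcs2 had 1 box, at -246 from the start, and Sec23b, for which a further start was listed, had none in the promoter shown. Tmed3 had boxes at -200 and 31, and Tmed9 had boxes at -83 and -3. None of the 4 genes had the core TGACGTG.

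The comparison of S63del with WT at P28 asks what the mutant protein does to these genes near the peak of myelination. Of the 54 genes, 6 rose and 1 fell, when 4.62% of all genes passed, 3.01% higher and 1.61% lower. The 6 risers were Sec61a1, Sec11c, Spcs2, Sec23b, Tmed3 and Tmed9, 11.1% of the 54. Kdelr2, a KDEL receptor, was the gene that fell. In all, 40 of the 54 lay above 0, with a median difference of 0.19, against a median of 0.01 over all genes. An unadjusted p under 0.05 was reached by 20 of the 54 and by 2664 of the 12393.

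Signal peptidase had the highest median difference of the 9 roles, 0.40. Sec11c, a catalytic subunit, had log2 values of 10.81 and 10.94 in S63del nerves, against 9.73 and 10.21 in WT nerves. Spcs2 had values of 11.37 and 11.30 in S63del nerves, against 10.71 and 10.70 in WT nerves. In both genes the mutant arrays lay above both WT arrays. Such separation of 2 arrays from 2 is common. In S63del against WT at P5, 22.8% of all genes lay above in this way and 27.3% below. The share of all genes at P28 is not given here. Sec11c was 0.91 ± 0.17 higher (SE, 1.88-fold, limma adjusted p = 0.005) and Spcs2 was 0.63 ± 0.12 higher (1.55-fold, limma adjusted p = 0.00813). The other subunits, Sec11a, Spcs1 and Spcs3, also lay above WT on both arrays, by 0.40, 0.33 and 0.33, and did not pass (adjusted p = 0.0838, 0.177 and 0.216 in limma).

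In the translocon, Sec61a1, the pore of the channel, had values of 11.59 and 11.67 in S63del nerves, against 10.91 and 11.25 in WT nerves. It rose by 0.55 ± 0.14 (1.47-fold, limma adjusted p = 0.0314). Sec61b, the small beta subunit, was 0.49 ± 0.14 higher and missed the threshold (limma adjusted p = 0.0563), with 11.25 and 11.19 in S63del nerves against 10.63 and 10.81 in WT nerves. Sec63, which couples the channel to the chaperone BiP, was 0.31 ± 0.16 higher, and Sec61a2 and Sec62 differed by 0.09 and 0.08. None of the 4 TRAP genes passed, with differences between -0.03 for Ssr1 and 0.34 for Ssr3. None of the 6 SRP genes passed, with differences between -0.09 for Srp68, a scaffold of the particle, and 0.32 for Srp19, which helps assemble it.

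COPII genes had a median difference of 0.05, with 7 of 12 above 0 and 1 past the threshold. Sec23b had values of 9.76 and 9.64 in S63del nerves, against 9.11 on both WT arrays, and rose by 0.59 ± 0.13 (1.51-fold, limma adjusted p = 0.0158). Its paralogue Sec23a was 0.26 ± 0.19 higher, and Sec23ip, a Sec23 partner, 0.33 ± 0.15 higher, without passing. Sec24b, a cargo-binding subunit, lay below WT on both arrays, at 8.50 and 8.42 in S63del nerves against 8.61 and 8.92 in WT nerves. That difference of -0.31 ± 0.12 did not pass (limma adjusted p = 0.164), and the outer coat gene Sec31a was at -0.19 ± 0.12. None of the 8 COPI genes passed, although 7 lay above 0, between 0.02 for Copg2 and 0.27 for Copb1. Neither Sec22 gene passed (0.34 for Sec22a and 0.19 for Sec22b, a SNARE, which helps vesicles fuse).

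Among p24 genes, Tmed3 had values of 10.97 and 10.77 in S63del nerves, against 10.23 and 10.56 in WT nerves. Tmed9 had 10.52 and 10.43 in S63del nerves, against 9.73 and 10.12 in WT nerves. Neither gene's mutant arrays overlapped its WT arrays. Tmed3 rose by 0.47 ± 0.12 (limma adjusted p = 0.0313) and Tmed9 by 0.55 ± 0.15 (limma adjusted p = 0.0422). Tmed5 was 0.56 ± 0.24 higher and did not pass (limma adjusted p = 0.185). The remaining p24 genes lay between -0.13 for Tmed6, which is dim here, and 0.21 for Tmed10.

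These calls rested on few arrays. Without WT replicate 1 only Kdelr2 passed, without S63del replicate 1 Kdelr2 and Sec11c, without S63del replicate 2 Kdelr2 and Spcs2, and without WT replicate 2 the 7 genes and Tmed5. In these 4 fits 0.912%, 0.976%, 1.53% and 5.35% of all genes passed. The differences of the 6 risers stayed above 0 in all 11 alternative fits, with a lowest value of 0.31, for Tmed3. In each of the 6 both S63del arrays lay above both WT arrays, so leaving out an array could not turn the sign. Of the other fits, only quantile normalization and the mean of all probe sets could change the difference.

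**Figure D1:**
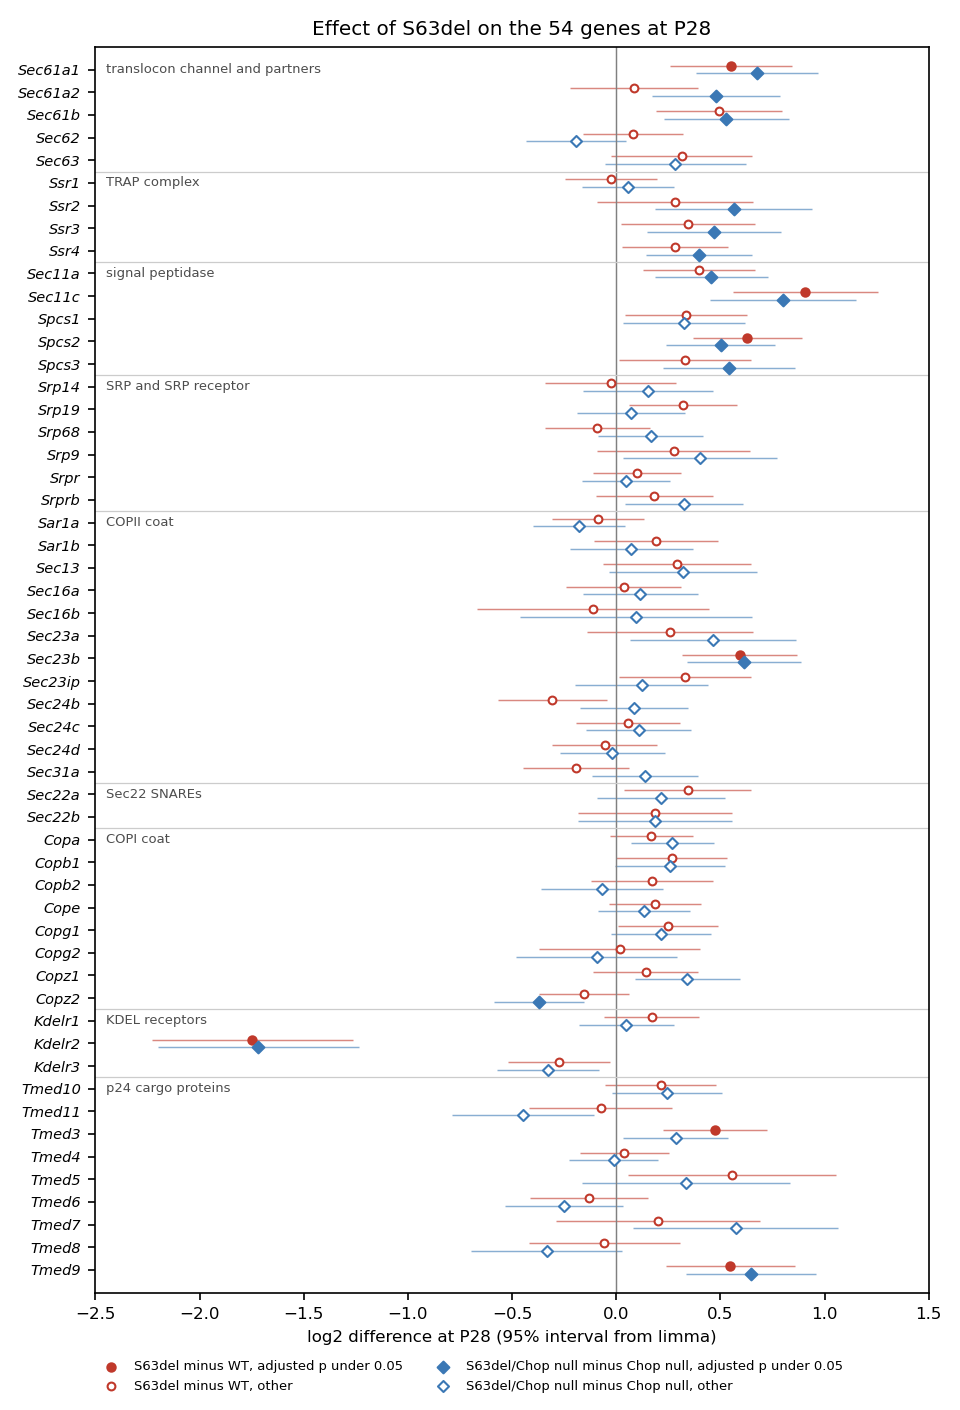
Log2 difference at P28 for each of the 54 genes, grouped by role, for S63del minus WT (circles) and S63del/Chop null minus Chop null (diamonds), with 95% intervals from limma and filled symbols for an adjusted p under 0.05. All 5 signal peptidase genes lie right of 0 in both comparisons, and Kdelr2 lies far to the left at -1.75 and -1.72.

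S63del/Chop null against Chop null at P28 asks for the effect of the mutant where Chop is missing, on arrays not shared with the comparison above. Here 12 of the 54 genes rose and 2 fell (25.9%), when 17.8% of all genes passed, 9.77% higher and 8.05% lower. The median difference was 0.20, against -0.02 over all genes, and 42 of the 54 lay above 0. Risers came from the translocon (Sec61a1, Sec61a2 and Sec61b), TRAP (Ssr2, Ssr3 and Ssr4), the signal peptidase (Sec11a, Sec11c, Spcs2 and Spcs3), COPII (Sec23b) and p24 (Tmed9). Kdelr2 and Copz2, a COPI subunit, fell.

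Sec11c had values of 10.80 and 10.77 in S63del/Chop null nerves, against 10.21 and 9.75 in Chop null nerves. Sec61a1 had 11.40 and 11.61 in S63del/Chop null nerves, against 11.003 and 10.655 in Chop null nerves. Tmed9 had 10.53 and 10.40 in S63del/Chop null nerves, against 10.05 and 9.58 in Chop null nerves. In each the mutant arrays lay above both Chop null arrays, and the share of all genes that did so is not given here. The differences were 0.80 ± 0.17, 0.67 ± 0.14 and 0.65 ± 0.15, with limma adjusted p = 0.00604, 0.00595 and 0.00988. Sec23b had 9.65 and 9.50 in S63del/Chop null nerves, against 9.03 and 8.89 in Chop null nerves (0.61 ± 0.13, limma adjusted p = 0.00697). Spcs2 had 11.31 and 11.18 in S63del/Chop null nerves, against 10.89 and 10.59 in Chop null nerves (0.50 ± 0.12, limma adjusted p = 0.0144). These 5 genes rose in both comparisons.

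Of the other genes that passed, Ssr2, a TRAP subunit, had 9.97 and 9.80 in S63del/Chop null nerves, against 9.50 and 9.14 in Chop null nerves. Spcs3 had 10.06 and 10.11 in S63del/Chop null nerves, against 9.84 and 9.25 in Chop null nerves. Sec61b had 11.20 and 11.03 in S63del/Chop null nerves, against 10.72 and 10.46 in Chop null nerves. All 3 separated without overlap, for which no share over all genes is given here. Their differences were 0.56 ± 0.18, 0.54 ± 0.15 and 0.53 ± 0.14. Sec61a2, the less widely expressed channel isoform, had 7.84 and 7.29 in S63del/Chop null nerves, against 7.19 and 6.98 in Chop null nerves. Ssr3 had 11.86 and 11.63 in S63del/Chop null nerves, against 11.59 and 10.96 in Chop null nerves. Sec11a had 10.79 and 10.60 in S63del/Chop null nerves, against 10.38 and 10.10 in Chop null nerves. In these 3 the mutant replicates also stayed above the Chop null replicates, by 0.48, 0.47 and 0.46 on average, with limma adjusted p = 0.0336, 0.0439 and 0.0242. Ssr4 was 0.40 ± 0.12 higher and Copz2 0.37 lower (-0.37 ± 0.10, limma adjusted p = 0.023).

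Most of these calls turned on 1 array. Without Chop null replicate 2 only Kdelr2 passed, with 4.46% of all genes, and without Chop null replicate 1 28 of the 54 passed, with 48.3% of all genes. Without S63del/Chop null replicate 1 the count was 3, with 7.63% of all genes, and without replicate 2 it was 7, with 4.34%. With array weights 0 of the 54 passed, and 0.113% of all genes. The weights came out equal for both replicates of each group, at 0.15 for the P28 Chop null arrays, so they mark no single array. Ssr4 changed sign with the mean of its 3 probe sets, at -0.11.

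The comparisons S63del against WT and S63del/Chop null against Chop null called 6 genes in common at P28: Sec61a1, Sec11c, Spcs2, Sec23b, Tmed9 and Kdelr2, each in the same direction. That is 85.7% of the 7 and 42.9% of the 14. Over all genes, 369 were called in the same direction in both, 64.5% of 572 and 16.7% of 2209. Across the 54 genes the differences had a Pearson r of 0.885 and a Spearman rho of 0.778, and without Kdelr2 an r of 0.775. Over all 12393 genes the r was 0.69 and the rho 0.659. Genes are not independent replicates, and the fits share 1 estimate of the spread.

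Other features of the P28 arrays differed between the groups. The 18S ribosomal RNA control probe set, which reads RNA not meant to be copied by the labelling, was at 6.19 and 6.71 in S63del nerves against 9.65 and 9.43 in WT nerves. It was at 6.02 and 5.92 in S63del/Chop null nerves against 9.67 and 10.57 in Chop null nerves, so that all mutant arrays lay below the others. Macrophage markers averaged 9.32 to 9.39 in S63del nerves, against 9.004 to 9.19 in WT nerves, and 2 of 8, Aif1 and Cx3cr1, rose. They averaged 9.17 to 9.22 in S63del/Chop null nerves, against 9.01 to 9.14 in Chop null nerves, with 0 of 8 passing. Endothelial markers averaged 8.06 to 8.11 in S63del nerves, against 8.45 to 8.46 in WT nerves, with 0 of 7 passing. They averaged 8.26 to 8.38 in S63del/Chop null nerves, against 8.14 to 8.39 in Chop null nerves, where the groups overlapped. Skeletal muscle markers averaged 7.95 to 11.10 in S63del nerves, against 11.35 to 11.93 in WT nerves, with 0 of 8 passing. In S63del/Chop null nerves the muscle markers averaged 8.18 to 11.62, against 9.91 to 12.06 in Chop null nerves. Mast cell and lymphocyte markers averaged 7.46 to 7.51 in S63del nerves, against 7.11 to 7.21 in WT nerves, and 1 of 8, Tpsb2, rose. In S63del/Chop null nerves they averaged 7.33 on both arrays, against 6.75 to 7.41 in Chop null nerves, where 4 of 8 rose and 1 fell. Schwann cell markers averaged 12.34 to 12.41 in S63del nerves, against 12.41 to 12.47 in WT nerves, and 1 of 6, Mal, fell. They averaged 12.36 to 12.44 in S63del/Chop null nerves, against 12.41 to 12.48 in Chop null nerves, and Mal fell. The part of these features in the results was not tested.

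The KDEL receptors return ER proteins that reach the Golgi, and their genes did not move together. Kdelr2 had log2 values of 9.96 and 10.01 in S63del nerves at P28, against 11.79 and 11.67 in WT nerves. It had 10.10 and 10.06 in S63del/Chop null nerves, against 11.35 and 12.25 in Chop null nerves. Every mutant array lay more than 1 log2 unit below every array without the mutant. The differences were -1.75 ± 0.23 (3.36-fold lower, limma adjusted p = 0.00041) and -1.72 ± 0.23 (3.29-fold lower, limma adjusted p = 0.000299). Kdelr2 passed in all 11 alternative fits of S63del against WT, and in all but the array weights in S63del/Chop null against Chop null.

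A second Kdelr2 probe set, dimmer on average, did not show this. It had 8.36 and 8.21 in S63del nerves, against 8.50 and 8.38 in WT nerves. It had 8.39 and 8.43 in S63del/Chop null nerves, against 8.41 and 8.62 in Chop null nerves. Its differences were -0.16 ± 0.11 and -0.11 ± 0.11, with limma adjusted p = 0.481 and 0.503. The 18S control separated the P28 arrays in the same way as the brighter probe set, and its part in the Kdelr2 result was not tested.

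Kdelr1 had 10.46 and 10.45 in S63del nerves at P28, against 10.24 and 10.34 in WT nerves, and 10.35 and 10.64 in S63del/Chop null nerves, against 10.45 on both Chop null arrays. It did not pass (0.17 ± 0.11 and 0.05 ± 0.11). Kdelr3 had 9.21 and 8.99 in S63del nerves, against 9.32 and 9.43 in WT nerves, and 9.02 and 8.93 in S63del/Chop null nerves, against 9.35 and 9.25 in Chop null nerves. The Kdelr3 mutant arrays lay below the others in both comparisons without passing (-0.27 ± 0.12, limma adjusted p = 0.186, and -0.33 ± 0.12, limma adjusted p = 0.0592).

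**Figure D2:**
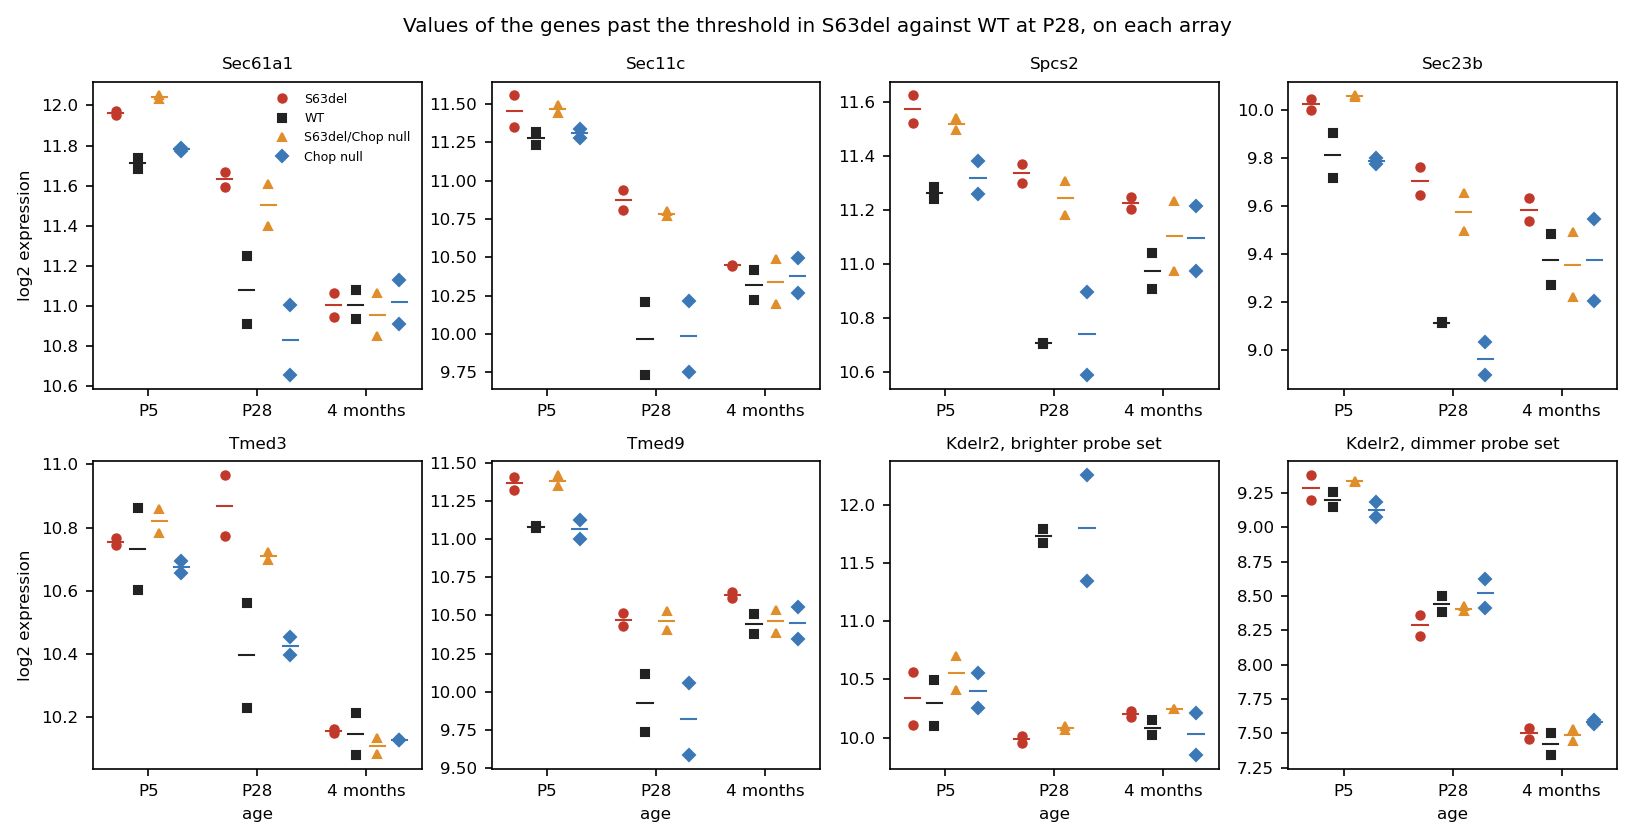
Log2 value on each array (points) and group mean (lines) at P5, P28 and 4 months for the 7 genes past the threshold in S63del against WT at P28, with both probe sets of Kdelr2. At P28 the S63del and S63del/Chop null arrays lie above WT and Chop null for 6 genes and near 10 for the brighter Kdelr2 probe set, where WT and Chop null lie between 11.35 and 12.25.

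At P5 the comparison of S63del with WT asks for early effects of the mutant, and 0 of the 54 genes passed, against 2.4% of all genes. An unadjusted p under 0.05 was reached by 8 of the 54 and by 1355 of all genes. The median difference was 0.07, against -0.02 over all genes. On 23 genes the S63del arrays lay above both WT arrays, where 22.8% of all genes did so, and on 7 below, where 27.3% of all did. Sec63 had 8.99 and 9.02 in S63del nerves, against 8.65 and 8.50 in WT nerves, a difference of 0.43 ± 0.16 (limma adjusted p = 0.261). Ssr4, the TRAP delta subunit, had 11.43 and 11.46 in S63del nerves, against 11.20 and 11.01 in WT nerves (0.34 ± 0.12, limma adjusted p = 0.206). The other genes with an unadjusted p under 0.05 were Srp14, Spcs2, Srp19 and Srp68, higher by 0.33, 0.31, 0.30 and 0.295, and Copz2 and Tmed6, at -0.26 and -0.34. With array weights 6 of the 54 passed (Sec63, Ssr4, Spcs2, Srp19 and Srp68 higher and Copz2 lower), against 8.34% of all genes in that fit. Sec63 alone passed in the fit of the P5 arrays and in the fit without the arrays that stood apart.

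S63del/Chop null against Chop null at P5 gave 0 of 54, against 1.78% of all genes, with 4 of the 54 and 1045 of all genes at an unadjusted p under 0.05. The median was 0.12, and 43 of the 54 lay above 0. Ssr4 had the largest difference, with 11.37 and 11.50 in S63del/Chop null nerves, against 11.03 and 11.08 in Chop null nerves (0.38 ± 0.12, limma adjusted p = 0.182). Tmed9, Srprb, the beta subunit of the SRP receptor, and Cope, a COPI subunit, were 0.32, 0.28 and 0.24 higher. Sec63, Ssr4 and Tmed9 passed with array weights, against 7.54% of all genes. Schwann cell markers moved at P5 too, with Mal, Mbp and Ncmap, 3 of 6, lower in S63del than in WT and in S63del/Chop null than in Chop null, and their part in these values was not tested. Sec61a1 had 12.05 and 12.03 in S63del/Chop null nerves, against 11.79 and 11.77 in Chop null nerves, and 11.97 and 11.95 in S63del nerves, against 11.74 and 11.68 in WT nerves, without passing in either. Kdelr2 overlapped between mutant and other arrays at P5. It had 10.56 and 10.11 in S63del nerves, against 10.10 and 10.50 in WT nerves, and 10.41 and 10.70 in S63del/Chop null nerves, against 10.55 and 10.25 in Chop null nerves.

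At 4 months none of the 54 genes passed in S63del against WT or in S63del/Chop null against Chop null, where limma called 0 of all 12393 genes too. At an unadjusted p under 0.05 the counts were 2 and 0 of the 54, and 577 and 181 of all genes. The medians were 0.02 and -0.03. Kdelr1 had 9.99 and 10.05 in S63del nerves, against 9.59 and 9.69 in WT nerves (0.38 ± 0.11, limma adjusted p = 0.589). It had 9.998 and 10.159 in S63del/Chop null nerves, against 9.99 and 10.02 in Chop null nerves, so the WT arrays were the lowest. The brighter Kdelr2 probe set had 10.23 and 10.18 in S63del nerves, against 10.15 and 10.02 in WT nerves, and 10.25 on both S63del/Chop null arrays, against 10.21 and 9.85 in Chop null nerves. Kdelr3 had 8.68 and 8.77 in S63del nerves, against 8.93 and 8.74 in WT nerves, and 8.55 and 8.68 in S63del/Chop null nerves, against 8.73 and 8.80 in Chop null nerves. The 3′ minus 5′ Gapdh control difference was 1.32 and 1.05 on the S63del arrays and 2.12 and 0.08 on the WT arrays, and its part in these values was not tested.

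Kdelr2 was the gene among the 54 whose S63del effect differed between ages. The effect at P28 minus that at P5 was -1.79 ± 0.32 (limma adjusted p = 0.0142), when 0.476% of all genes passed. The effect at 4 months minus that at P28 was 1.87 ± 0.32 (limma adjusted p = 0.0323), when 0.169% of all genes passed. With the mean of its probe sets neither passed. The call between P5 and P28 was lost in 5 of the 8 fits that left out an array, namely either S63del array at P28, WT replicate 1 at P28 or P5, or S63del replicate 1 at P5. The call between P28 and 4 months was lost in all 8. Sec11c had the largest of the other differences, 0.73 ± 0.23 between P5 and P28 (limma adjusted p = 0.285) and -0.78 ± 0.23 between P28 and 4 months (limma adjusted p = 0.381).

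S63del/Chop null was set against S63del to ask whether loss of Chop changes these genes in mutant nerve. None of the 54 passed at P5, P28 or 4 months, where 0.0161%, 0.00807% and 0.00807% of all genes passed. At an unadjusted p under 0.05 the counts were 0, 3 and 1 of the 54 in limma, and 110, 466 and 274 of all genes. At P28 the 3 were Sec22a (-0.36 ± 0.15), Srp19 (-0.27 ± 0.12) and Srp68 (0.26 ± 0.12), and the medians at the 3 ages were -0.005, -0.03 and -0.08. Chop null against WT gave 0 of 54 at each age too, where 0%, 0% and 0.00807% of all genes passed, with 1, 1 and 2 of the 54 and 114, 1244 and 733 of all genes at an unadjusted p under 0.05 in limma. Kdelr1 was 0.36 ± 0.11 higher in Chop null than in WT nerve at 4 months (limma adjusted p = 0.736). Without Chop null replicate 1, 10 of the 54 passed at P28 and 28.1% of all genes. The difference of the S63del effect without Chop minus that with Chop passed for 0 of 54 at each age, where 0% of all genes passed in limma, and for 1 of 54 at each age at an unadjusted p under 0.05, when 107, 972 and 322 of all genes did. The largest such difference at P28 with an unadjusted p under 0.05 was that of Sec24b, 0.39 ± 0.17 (limma adjusted p = 0.592).

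Age was compared in WT nerve, where no genotype differs. In WT nerve at P28 against P5, 33 of the 54 genes fell and 4 rose (68.5%), when 59.5% of all genes passed, 28.2% lower and 31.3% higher. The median difference was -0.47, against 0.08 over all genes. Of the COPI genes 7 of 8 fell, among them Copg1 (-1.16 ± 0.11), Copz1 (-0.94 ± 0.12) and Cope (-0.92 ± 0.11). Copg1 had 8.46 and 8.60 in WT nerves at P28, against 9.64 and 9.73 at P5 (limma adjusted p = 4.92e-07). The largest fall was that of Sec11c, with 9.73 and 10.21 at P28, against 11.32 and 11.24 at P5 (-1.31 ± 0.17, limma adjusted p = 6.27e-06). Tmed9 had 9.73 and 10.12 at P28, against 11.08 and 11.09 at P5 (-1.16 ± 0.15). In none of these did the ages overlap, and the share of all genes that separated by age is not given here. Sec61a2 (-1.04), Sec13, which joins the outer COPII layer (-0.95), and Ssr2 (-0.95) fell by similar amounts.

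By role, 4 of 5 signal peptidase genes fell, 4 of 6 SRP genes, 3 of 5 translocon genes, 2 of 4 TRAP genes, 6 of 12 COPII genes, both Sec22 genes and 4 of 9 p24 genes. Those that rose were Kdelr2 (1.44 ± 0.23), Sec16b (1.27 ± 0.26), Tmed11 (0.61 ± 0.16) and Sar1a, the COPII GTPase (0.37 ± 0.10). Probe sets disagreed for several of them. The dimmer Kdelr2 probe set fell by 0.76 on the log2 scale (limma adjusted p = 3.38e-05), Sar1a was at -0.25 with the mean of its probe sets, and Ssr4 at 0.42 with the mean of its own.

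In WT nerve at 4 months against P28, 19 of the 54 rose and 6 fell (46.3%), when 57% of all genes passed, 31.5% higher and 25.5% lower, and the median was 0.26, against 0.03 over all genes. Tmed5 had 9.75 and 9.54 at 4 months, against 7.51 and 8.34 at P28 (1.72 ± 0.24). Sec61a2 had 8.58 and 8.41 at 4 months, against 7.19 and 7.43 at P28 (1.18 ± 0.15). Sec63 had 9.69 and 9.61 at 4 months, against 8.68 and 8.67 at P28 (0.98 ± 0.16). The older arrays lay above the younger in all 3, again with no share of all genes given here. All 3 KDEL receptors fell, by 1.65 for Kdelr2, 0.65 for Kdelr1 and 0.54 for Kdelr3 on the log2 scale, with Sar1a, Ssr2 and the dim Tmed11. Without WT replicate 1 at 4 months the count was 16 of 54, against 25.

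The same course held in each genotype as a median over the 54 genes. The median difference of P28 minus P5 was -0.33 in S63del, -0.47 in WT, -0.39 in S63del/Chop null and -0.46 in Chop null nerves. Relative to WT at P5, the median of the 54 at P28 was -0.30 in S63del and -0.47 in WT nerves, and -0.24 in S63del/Chop null and -0.48 in Chop null nerves. By 4 months it lay between -0.22 and -0.18 in the 4 genotypes. Cell composition and array level also differed between ages. Adipocyte markers averaged 10.78 to 10.97 in WT nerves at P28, against 7.74 to 8.25 at P5, and 5 of 5 rose. Skeletal muscle markers averaged 6.60 to 7.50 in WT nerves at 4 months, against 11.35 to 11.93 at P28, and 8 of 8 fell. The 18S control was at 7.32 and 7.85 in WT nerves at P5, 9.65 and 9.43 at P28, and 6.58 and 6.83 at 4 months. Array medians were 6.84 to 6.87 at P28 and 6.97 to 7.03 at the other ages, and the sources used here do not say whether the arrays of an age were processed together. The part of these features in the age differences was not tested.

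**Figure D3:**
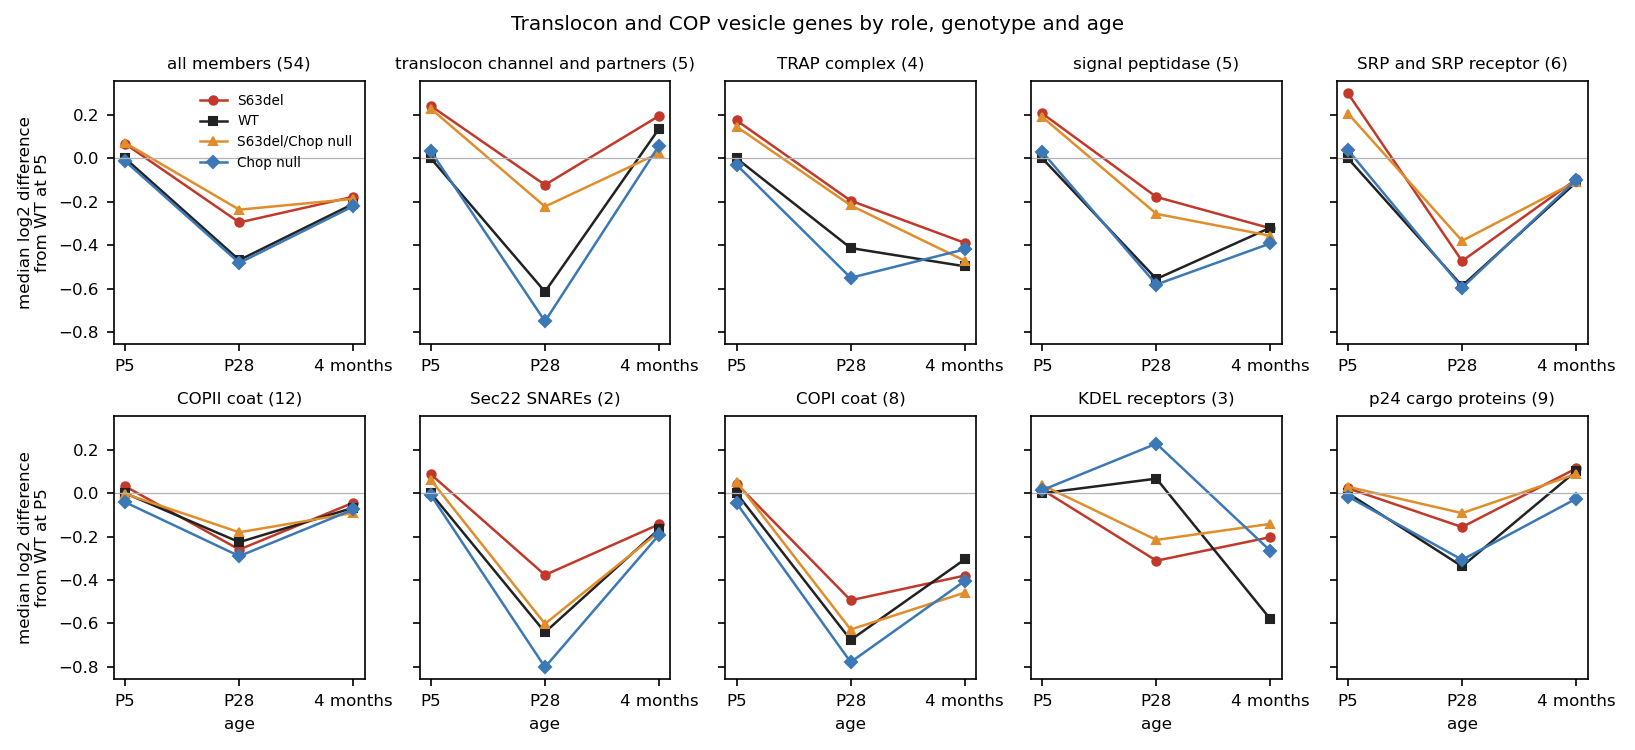
Median log2 difference from WT at P5 of the genes in each role (number of genes in brackets) at the 3 ages, with a line for each genotype. Most roles dip at P28. The S63del and S63del/Chop null lines lie above WT and Chop null there in every role but COPII and the KDEL receptors. For the signal peptidase the medians at P28 are -0.18 in S63del and -0.56 in WT.

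Genes that fell with age in WT nerve were set against the effect of the mutant at P28 on arrays not used for the age comparison. Of the 33 that fell, 29 lay above 0 in S63del/Chop null against Chop null and 10 passed as higher, with a median of 0.322. Of the 21 others, 13 lay above 0 and 2 passed as higher, with a median of 0.055. As percentages, 87.9% of the 33 lay above 0 and 30.3% passed as higher, against 80.5% and 22.8% of the 3501 genes on the array that fell. Of the genes that did not fall, 61.9% of the 21 lay above 0 and 9.52% passed as higher, against 34.4% and 4.63% of 8892 on the array. Across the 54 genes, the change with age and the effect of the mutant had a Pearson r of -0.696 and a Spearman rho of -0.655, and without Kdelr2 an r of -0.575. Over all 12393 genes the r was -0.494 and the rho -0.559, so the inverse relation was not particular to these genes. This is a description across genes, which are not independent replicates, and no p was computed. The 18S control was at 9.43 to 10.57 on P28 WT and Chop null arrays and at 5.92 to 6.71 on P28 mutant arrays. It was at 7.32 and 7.85 on the WT arrays at P5, and its part in this relation was not tested.

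**Figure D4:**
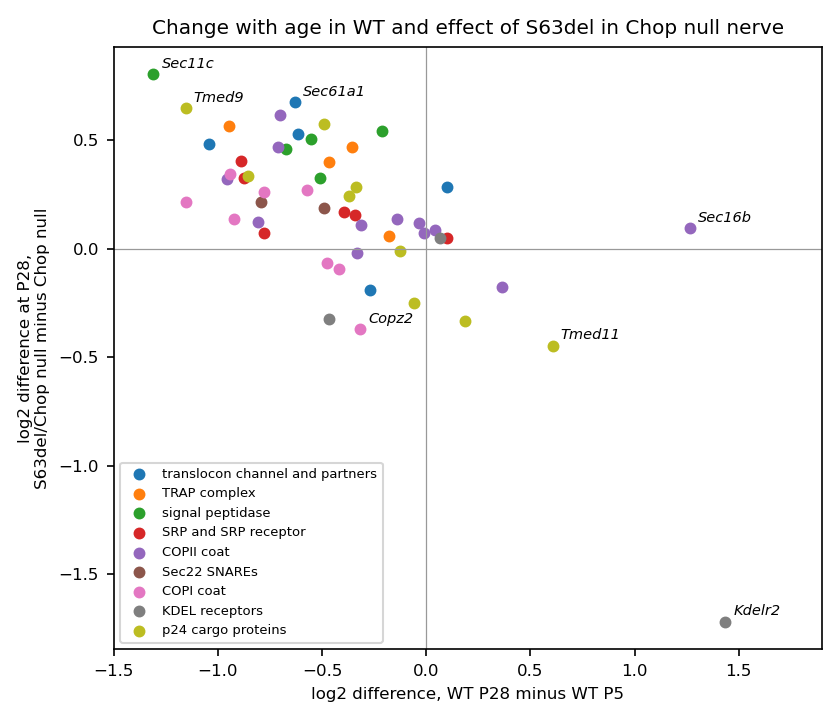
Log2 difference between P28 and P5 in WT nerve (horizontal) against the log2 difference of S63del/Chop null minus Chop null at P28 (vertical), a point for each of the 54 genes, coloured by role. Sec11c lies at the upper left, at -1.31 and 0.80, and Kdelr2 at the lower right, at 1.44 and -1.72.

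Neighbours of these genes in the same route were read from lists of known function, to be set against the 4.62% and 17.8% of all genes that passed at P28 in S63del against WT and in S63del/Chop null against Chop null. In the second comparison the shares that passed were 25% for the oligosaccharyltransferase, 18.8% for other ER import, 30% for the ARF1 system, 18.8% for COPII assembly and cargo, and 13.6% for SNAREs and tethers, and nothing particular to a list is read from them. Of 12 measured genes of the oligosaccharyltransferase, which adds sugars to chains at the translocon, 0 passed in S63del against WT at P28 (median 0.35, 11 above 0). The comparison of S63del/Chop null with Chop null had 3 that rose, Stt3a (0.66 ± 0.16), Ddost (0.51 ± 0.12) and Rpn2 (0.48 ± 0.11). Of 16 other ER import genes 0 and 3 passed, the 3 being Tram1, a translocon partner (0.79 ± 0.17), Dnajc1 (0.54 ± 0.14) and Sil1 (0.41 ± 0.12), co-chaperones of BiP. Of 10 genes of the ARF1 system, which recruits COPI, 0 and 3 passed, Arfgap3 (0.65 ± 0.16), Arf4 (0.55 ± 0.16) and Arf1 (0.36 ± 0.10).

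Among 16 genes of COPII assembly and cargo receptors, Mcfd2 rose in S63del against WT (0.41 ± 0.11) and in S63del/Chop null against Chop null (0.48 ± 0.11). It forms a cargo receptor with Lman1, which rose in S63del/Chop null against Chop null (0.59 ± 0.17), where Mia2, which helps load large cargo, fell (-0.46 ± 0.14). Among 22 SNAREs and tethers of ER to Golgi transport, 4 rose in S63del against WT, the SNAREs Bet1 (0.78 ± 0.17), Stx18 (0.50 ± 0.10) and Bet1l (0.46 ± 0.12) and the tether subunit Trappc1 (0.56 ± 0.14). Of the 22, 3 rose in S63del/Chop null against Chop null, Bet1 (0.52 ± 0.17), Stx18 (0.33 ± 0.10) and the tether Uso1 (0.48 ± 0.16). At P5 none of these 5 lists had a gene past the threshold in either comparison.

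As a point of reference, 11 of 20 ER stress genes rose in S63del against WT at P28 and 9 at P5. In S63del/Chop null against Chop null 13 and 9 rose. Of all genes, 3.01% and 9.77% passed as higher in these comparisons at P28. At P5 2.4% and 1.78% of all genes passed in either direction. Hspa5, which encodes BiP, was 1.28 ± 0.21 higher in S63del than in WT at P28 (limma adjusted p = 0.00267) and 0.79 ± 0.21 higher at P5 (limma adjusted p = 0.069). Xbp1 was 0.63 ± 0.13 higher at P28 (limma adjusted p = 0.0103) and at -0.14 ± 0.13 at P5. Sdf2l1, an ER chaperone partner, was 1.71 ± 0.20 higher at P28 and 2.31 ± 0.20 at P5. Herpud1, a gene of ER-associated degradation, was 0.53 ± 0.12 higher at P28 and 0.81 ± 0.12 at P5. These lists were drawn up with earlier results of the same arrays known.

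Several genes were read by more than 1 probe set, and those that passed were checked this way. All 6 Sec61a1 probe sets lay above 0 in S63del against WT at P28, between 0.27 and 0.55. Both Tmed9 probe sets did (0.55 and 0.50), and both of Spcs2 (0.63 and 0.42). In S63del/Chop null against Chop null 1 of the 6 Sec61a1 probe sets lay below 0, at -0.16. Srp14, which binds the Alu domain of the SRP RNA, was near 0 on its brightest probe set (-0.03 ± 0.15) and higher on its other 3, by 0.49 ± 0.11 (limma adjusted p = 0.0237 over all probe sets), 0.38 and 0.44. Copb2, a COPI subunit, differed by 0.17 and 0.58 on its probe sets in S63del against WT. In S63del/Chop null against Chop null they were at -0.07 and 0.87, the dimmer of them passing (limma adjusted p = 0.0229). The remaining 30 genes had no further probe set to compare.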

How the data were processed

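Expression in mouse sciatic nerve was measured on 24 Affymetrix arrays, labelled as biological replicates, 2 in each of 12 groups. The authors deposited log2 values for 22690 probe sets, a unit read from the values themselves. Per the labels' protocols, biotinylated cRNA was made from 5 ug of total RNA, and the sources used here do not state the background correction, summarisation or normalization. Of these probe sets 64 were controls, 20380 had 1 symbol, 691 several and 1555 none in the platform annotation. Each gene was read by its probe set with the highest mean over the arrays, which gave 12393 genes.

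Group means were fitted with limma 3.58.1 (R 4.3.3) over all arrays with 12 residual degrees of freedom, and p-values were adjusted by Benjamini and Hochberg over all genes in each of 19 contrasts. The fit was tested on simulated data in which a gene had the same spread on every array. The spread between replicates differed between the groups here, which that simulation does not cover. The number of arrays limits the precision, and p-values measure the spread between the labelled replicates. Alternatives were the mean of all probe sets, quantile normalization, dim probe sets left out (under the 40th percentile of mean level), array weights (statmod 1.5.0), the replicate number as a block, the arrays that stood apart left out, the 8 arrays of an age alone and each array left out. Fits of each probe set, and of probe sets with several symbols, were added after the data had been seen. Members and lists were chosen with earlier results of these data known. By rule, array values were given for genes past the threshold in S63del against WT or S63del/Chop null against Chop null (at most 12 per comparison, by size) and for the KDEL receptors, and the largest differences were named elsewhere. Beyond it, Sec24b at P28, Sec63, Ssr4 and Sec61a1 at P5 and array values of age differences were chosen after their values were seen.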

Additional observations from a re-analysis of the deposited data

Results flagged for a closer look

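The S63del effect on Kdelr2 differed between ages by the test of the difference itself. Its effect at P28 minus that at P5 was -1.788, and its effect at 4 months minus that at P28 was 1.865, both on the brighter of its probe sets.

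Probe sets that list several symbols, one of them fitting the naming rule, were left out of the 54 genes, and some of them passed the threshold at P28. The probe sets shared by Tmed10 and its pseudogene Tmed10-ps were higher in S63del than in WT by 0.790, 0.852 and 0.825. They were higher in S63del/Chop null than in Chop null by 1.001, 0.952 and 0.913, and a further one by 0.522. The Tmed10 probe set with 1 symbol differed by 0.21 and 0.24 in these comparisons without passing. Also higher in S63del/Chop null than in Chop null were probe sets shared by Sec61g, the gamma subunit of the channel, and a pair of predicted genes (0.465), by Srprb and Trf (0.451), and by Tmed2 and a predicted gene (0.391). Which gene such a probe set reads cannot be told apart.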

How the results depend on the processing

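The counts of the 54 genes moved with the setting mostly at P28. In S63del against WT at P28, where 7 passed, the count was 13 without the arrays that stood apart, 1 in the 8 arrays of that age alone, and between 1 and 8 with an array left out. In S63del/Chop null against Chop null at P28, where 14 passed, it was 0 with array weights, 2 without the arrays that stood apart, 1 in the 8 arrays alone, and between 1 and 28 with an array left out. At P5, where 0 passed, S63del against WT gave 6 with array weights, 1 without the arrays that stood apart and 1 in the 8 arrays alone, and S63del/Chop null against Chop null gave 3 with array weights. Kdelr2's difference between P28 and P5 in the S63del effect gave a count of 0 with the mean of all probe sets and between 0 and 1 with an array left out. For 4 months minus P28 the count was 0 with the mean of all probe sets, 0 with the replicate block and 0 in every fit with an array left out.

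With an array left out the ranges were 0 to 10 for Chop null against WT at P28, where 10 came without Chop null replicate 1, and 0 to 1 at 4 months, where 1 came without WT replicate 2. They were 0 to 5 for the difference of S63del effects at P28, again 5 without Chop null replicate 1. They were 27 to 37 for WT at P28 against P5 and 16 to 26 for WT at 4 months against P28. A group with an array left out has 1 array, which is assumed to vary like the other groups. The sign turned in 3 values, all with the mean of all probe sets, since other probe sets of the gene differ: Ssr4 in S63del/Chop null against Chop null at P28 (-0.112), Ssr4 in WT at P28 against P5 (0.417) and Sar1a in WT at P28 against P5 (-0.246). The cause of the other changes was not tested.

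Replicate numbers were used as a block within each age. Deviations of same-numbered arrays from their group means correlated between -0.48 and 0.35. The labels do not say whether the numbers pair the samples, and these values do not settle it. With the block the count at P28 was 4 in S63del against WT and 11 in S63del/Chop null against Chop null. Over single genes, 535 values in other settings kept their direction and their side of the threshold, 99 no longer passed, 2 newly passed and 3 turned. These counts exclude the fits with an array left out, in which calls were lost more often. They also pool the age comparisons in WT nerve with the genotype comparisons. Arrays in pairs, levels near the dim end for 4 genes and an unstated normalization limit what these values can show.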

Other observations

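Sec61a1 was read by 6 probe sets, which gave different courses after P28. In WT nerve at 4 months against P28 the brightest was at -0.07, the others at -0.55, -0.60, -2.38 and -2.05, and the dimmest at 0.98. Between genotypes at P28 they differed less, and all 6 lay above 0 in S63del against WT.

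At 4 months 44 of the 54 genes lay below 0 in S63del/Chop null against S63del, with a median of -0.08, against 7292 of 12393 genes below 0 and a median of -0.03 over all genes. None of the 54 passed in limma, and 1 had an unadjusted p under 0.05.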
